A study of Mus musculus with 15 samples.

Results

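Oxidative phosphorylation genes were taken from NMuMG-derived cell lines by their symbols. The symbols covered the mitochondrially encoded protein genes (mt-Nd, mt-Cytb, mt-Co and mt-Atp) and the nuclear families Nduf, Uqcr, Cox4 to Cox8 and Atp5. In Dataset 1 the rule found 91 of 13893 genes, 13 mitochondrially encoded (mt) and 78 nuclear. In Dataset 2 it found 89 of 15023 genes, 13 mt and 76 nuclear. Together these are 94 distinct genes. NMuMG is a mouse mammary gland epithelial cell line. All 11 lines of Dataset 1 carried the shRNA knockdown of PCBP1, with 1 RNA sample per line. They included the unaltered shPCBP1 cells, 3 CT clones made with Cas9 but no gene-specific guide, and 3 clones each of FAM3C KO and LIFR KO. A single line was labelled as a double KO of both genes (DKO), with no clone number, and the study does not describe how it was made. The KO clones were grown from single colonies after CRISPR-Cas9 excision, so each FAM3C KO and LIFR KO library stands for 1 clone. Dataset 2 compared 2 samples of NMuMG cells with 2 of shPCBP1 cells. The labels give the control cells as untreated, whereas the study describes them as carrying a scrambled shRNA, and the files do not settle which, so that the Dataset 2 differences are either from untreated or from shRNA control cells.

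Oxidative phosphorylation couples the transfer of electrons along complexes I, III and IV of the inner mitochondrial membrane to ATP synthesis by complex V. Core subunits of these complexes are encoded by mitochondrial DNA and transcribed as long polycistronic precursors inside the organelle, whereas most subunits are encoded in the nucleus and imported. The mRNAs of 1 complex therefore come from separate genomes with separate transcription machineries, and mitochondrial transcripts are rich in A and T.

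Libraries were made from total RNA after rRNA depletion. The deposited values are CPM, read counts scaled to the total of a library, and the genes of a library summed to between 703925 and 786742 CPM in Dataset 1 and between 411758 and 415645 CPM in Dataset 2. CPM is a share of a library, so that more mitochondrial RNA per cell and less RNA of other genes cannot be told apart. Pcbp1 was between 287 and 312 CPM in the NMuMG samples and between 14.1 and 14.2 CPM in the shPCBP1 samples of Dataset 2. Fam3c ranged from 26.4 to 42.9 CPM in FAM3C KO against 47.0 to 59.4 in the shPCBP1 lines of Dataset 1. Lifr ranged from 14.6 to 34.9 CPM in LIFR KO against 25.8 to 40.2, so that these groups overlapped for the gene that was cut, and it was 4.36 CPM in the DKO. Of 8 listed epithelial markers 6 were in the table of Dataset 1, and Krt8, Krt18, Krt19 and Cdh1 were expressed in every library (218 to 1202 CPM). The 6 summed to between 1214 and 3169 CPM. Of 7 listed mesenchymal markers 6 were found there, and these summed to between 1215 and 2152 CPM. The 2 markers of blood, endothelial, fat or muscle cells found there summed to between 4.85 and 11.2 CPM. Libraries LIFR KO #2, LIFR KO #3 and DKO stood apart, since their differences from the shPCBP1 mean fell as the GC content of a gene rose (Spearman rho of -0.74, -0.73 and -0.69 over genes that are not members, against -0.28 to 0.22 in the other 8 libraries). Each shPCBP1 line was compared with the mean of the other shPCBP1 lines in such differences. The LIFR KO results below are therefore given for the 3 clones together and with LIFR KO #1 apart. A fit with LIFR KO #1 alone has 1 library in that arm, its spread comes from the shPCBP1 and FAM3C KO lines, and LIFR KO #1 is assumed to vary as they do, so its p-values have no replicate check.

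The sequences below show the difference in base composition between the genomes. mt-Atp8 encodes a small subunit of complex V and had the lowest GC content (31.9%) of all members, and capitals mark the 43 bases (chrM:7927-7969) that also belong to mt-Atp6. Atp5d encodes the delta subunit of ATP synthase and had the highest GC content (61.1% over its transcripts). Its first 204 coding bases, as many as mt-Atp8 has in all, held 66.2% G or C.
mt-Atp8, chrM:7766-7969, plus strand: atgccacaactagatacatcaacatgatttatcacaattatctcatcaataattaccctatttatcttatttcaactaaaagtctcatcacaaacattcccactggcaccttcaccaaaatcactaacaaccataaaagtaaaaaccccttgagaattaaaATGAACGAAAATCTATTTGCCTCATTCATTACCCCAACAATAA
Atp5d, chromosome 10, plus strand, coding start: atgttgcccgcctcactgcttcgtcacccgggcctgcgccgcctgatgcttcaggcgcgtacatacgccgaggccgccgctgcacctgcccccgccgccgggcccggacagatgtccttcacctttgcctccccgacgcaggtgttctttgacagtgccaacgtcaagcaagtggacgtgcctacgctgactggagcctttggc
The coding ends of mt-Nd5 and mt-Nd6, both subunits of complex I, lie on opposite strands of the mitochondrial genome and share 14 bases (capitals, chrM:13552-13565). They are shown because these were the only mt genes that rose with PCBP1 knockdown.
mt-Nd5, chrM:13506-13565, plus strand: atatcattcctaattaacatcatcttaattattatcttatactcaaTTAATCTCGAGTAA
mt-Nd6, chrM:13552-13611, minus strand: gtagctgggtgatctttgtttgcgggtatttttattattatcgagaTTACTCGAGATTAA
Positions and sequences are from GENCODE M21 (GRCm38). The GC content of the 13 mt genes lay between 31.9% and 41.1%, and that of the nuclear members with a value in Dataset 1 between 42.0% and 61.1% (median 52.5%), so that the ranges did not overlap. The median over all genes of the table was 50.9%.

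Levels between genes were compared per kilobase. In the 4 shPCBP1 lines mt-Co1, the catalytic subunit of complex IV, was highest with a mean of 5636 CPM per kb. mt-Nd1 of complex I followed with 4208 CPM per kb, then mt-Atp6 (2237), mt-Co2 (2179) and mt-Cytb (2011), which encodes cytochrome b of complex III. The lowest mt genes were the short mt-Atp8 (883 CPM per kb), mt-Nd4l (615) and mt-Nd3 (416). Atp5b, the catalytic beta subunit of ATP synthase, was the highest nuclear member (679 CPM per kb) and stood between mt-Atp8 and mt-Nd4l in this order. Cox8a (395) and Uqcrq (308) came next. Restricted isoforms of complex IV were near the floor: the mean of Cox7a1 was 1.41, of Cox4i2 0.699 and of Cox6b2 0.384 CPM per kb, and Cox6b2 was the only member of Dataset 1 that failed the filter of a mean of at least 0.5 CPM. In Dataset 2 the restricted isoforms Cox4i2, Cox6a2, Cox6b2 and Cox7b2, as well as Atp5k, failed that filter. Tested members therefore numbered 13 mt and 77 nuclear in Dataset 1 and 13 mt and 71 nuclear in Dataset 2.

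The sum of the 13 mt genes separated the libraries of Dataset 1. It was 26612 CPM in unaltered shPCBP1 cells and 29615, 26715 and 24718 CPM in CT #1, #2 and #3 (26915 ± 2021, SD, n = 4). FAM3C KO #1, #2 and #3 held 27523, 30013 and 30707 CPM (29415 ± 1674, n = 3). LIFR KO #1 held 27204 CPM, whereas LIFR KO #2 held 50876, LIFR KO #3 held 52095 and the DKO held 60397. The 8 libraries without the GC shift thus lay between 24718 and 30707 CPM, and all 3 with it lay above them, at 1.89, 1.94 and 2.24 times the shPCBP1 mean. The sum of the nuclear members was between 4937 and 5939 CPM in the 8 libraries without the shift and 4389, 3801 and 3892 CPM in LIFR KO #2, LIFR KO #3 and the DKO. The ratio of mt to nuclear CPM was accordingly 4.28 to 6.22 in the 8 libraries and 11.6, 13.7 and 15.5 in those 3. Genes in general were also lower in those 3. The median log2 difference from shPCBP1 over 12621 genes was -0.25, -0.21 and -0.24 there, against -0.28, -0.49 and -0.52 for the nuclear members.

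**Figure D1:**
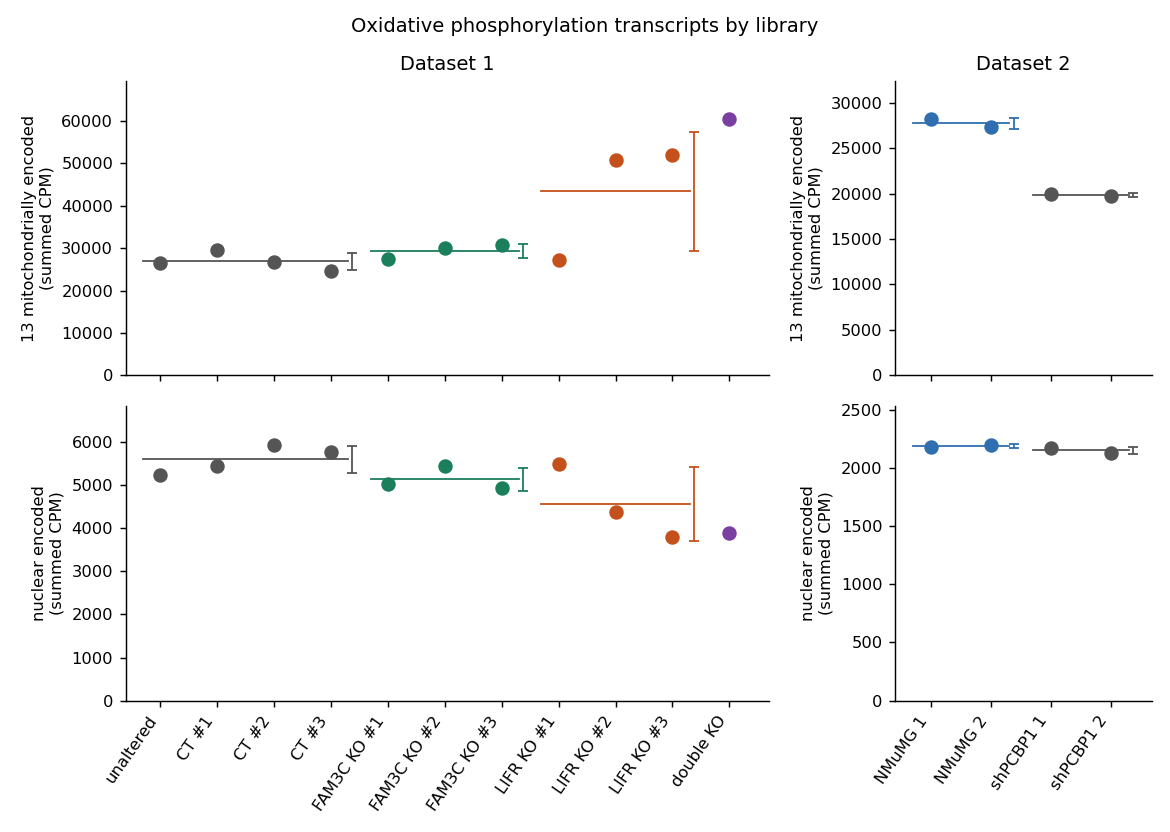
Summed CPM of the mitochondrially encoded (top) and nuclear encoded (bottom) oxidative phosphorylation genes, 1 point per library, with group mean (line) and SD (bar) where a group has more than 1 library. In Dataset 1 the 13 mt genes sum to 24718 to 30707 CPM except in LIFR KO #2, LIFR KO #3 and the double KO (50876 to 60397), where the nuclear sum is lowest; in Dataset 2 the mt sum is lower in both shPCBP1 samples and the nuclear sum is close.

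Every complex showed the same split. Members were assigned to complexes by symbol alone (mt-Nd and Nduf to I, mt-Cytb and Uqcr to III, mt-Co and Cox to IV, mt-Atp and Atp5 to V). Ndufa4, also on the list of complex IV isoform genes, was thus counted in complex I. In complex I the ratio of mt to nuclear CPM was 22.2 in LIFR KO #2, 25.9 in LIFR KO #3 and 28.2 in the DKO against 7.48 to 10.9 elsewhere. In complex IV it was 23.1, 30.1 and 32.0 against 9.88 to 14.5. The ratio of complex III, where mt-Cytb is the only mt gene, was 7.55, 7.83 and 9.52 against 2.76 to 3.53. For complex V, in which the mt genes are a small part, it was 1.91, 2.05 and 2.55 against 0.575 to 0.842.

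With the 3 LIFR KO clones taken as a group against the 4 shPCBP1 lines, 0 of 13 mt genes passed the threshold of adjusted p under 0.07 in limma. All 13 had an unadjusted p under 0.05 and a higher mean, with log2 fold changes from 0.47 (mt-Co1) to 1.03 (mt-Atp8) and adjusted p from 0.0701 to 0.128. Over all genes tested 6.47% passed the adjusted threshold, 0.911% higher and 5.55% lower. The share of all genes with an unadjusted p under 0.05 is not given here or below, so counts at that cutoff do not set the members apart. The clones differed in their mt values. LIFR KO #1 alone gave log2 differences of -0.16 to 0.27, none past the threshold, while LIFR KO #2 and #3 gave 0.72 to 1.41 and passed for 13 of 13 (57.4% of all genes passed in that fit, 17.3% higher and 40.0% lower). With LIFR KO #1 alone 0 mt members and 1 nuclear member, Ndufa6, passed, against 2.22% of all genes (0.656% higher and 1.57% lower). mt-Atp8 was 199, 202, 205 and 115 CPM in the unaltered line and CT #1, #2 and #3. It was 211 CPM in LIFR KO #1, 494 in #2, 441 in #3 and 606 in the DKO. mt-Co1 was 8204, 9905, 8813 and 7906 CPM in the same 4 shPCBP1 lines and 8526, 13746, 14835 and 16489 CPM in the LIFR KO clones and the DKO. mt-Nd2, a membrane subunit of complex I, was 1577 to 1938 CPM in shPCBP1 and 1890, 4658, 4665 and 5342 CPM. In the group of 3 clones mt-Atp8 was the only mt gene above every shPCBP1 line, where 3.95% of all genes were. For each of these genes LIFR KO #1 lay in or just above the shPCBP1 range and the other 3 libraries lay above it.

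Within those 3 libraries the size of the change followed base composition on both genomes. Across the 13 mt genes the rank correlation of GC content with the log2 difference was -0.88 in LIFR KO #2, -0.69 in LIFR KO #3 and -0.87 in the DKO. Across 76 nuclear members it was -0.69, -0.71 and -0.69. These are descriptions across genes of 1 library, which share that library. Of the 8 nuclear members with a GC content under 45%, 2 were higher past the threshold with LIFR KO #2 and #3 and 6 were not. Uqcrb (42.2% GC), a small subunit of complex III, was 47.6 and 41.0 CPM in LIFR KO #2 and #3 against 28.8 to 35.0 in shPCBP1, and Atp5pb (44.6% GC), a stalk subunit of ATP synthase, was 160 and 129 CPM against 92.5 to 114. They were the only nuclear members higher in that fit (log2 fold changes of 0.53 and 0.50, adjusted p = 0.00245 and 0.0054). Cox7b, with the lowest GC content of the nuclear members (42.0%), was at 0.13 (adjusted p = 0.358) and Ndufa4 (44.5% GC) at -0.03 (adjusted p = 0.884). Another 43 of the 76 nuclear members tested were lower in that fit. The largest fall was that of Ndufb7 (59.7% GC, log2 fold change -1.36), followed by Cox5b-ps (-1.23), whose near-identical copy Cox5b may share its reads, Atp5d (-1.07) and Ndufs7, which carries an iron-sulfur centre of complex I (-1.06). Cox8a of complex IV was lower by -0.94. The same genes were at 0.27, 0.16, 0.12, 0.09 and 0.03 in LIFR KO #1.

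**Figure D2:**
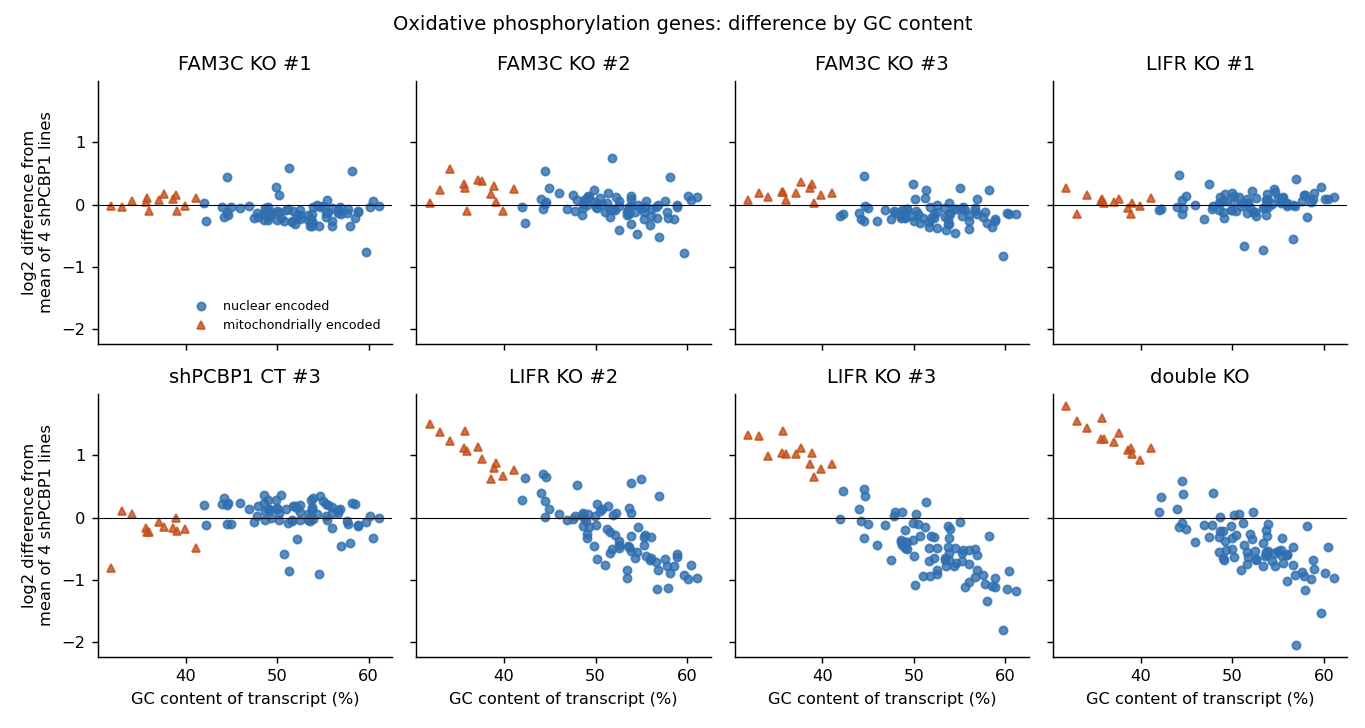
Log2 difference of each oxidative phosphorylation gene from the mean of the 4 shPCBP1 lines against the GC content of its transcripts, for 8 libraries of Dataset 1 (mt genes as triangles, nuclear genes as circles). CT #3 is set against the mean of the other shPCBP1 lines. In LIFR KO #2, LIFR KO #3 and the double KO both kinds of gene fall along a slope, with the mt genes highest at the low GC end. In the other 5 libraries shown the rank correlation with GC content is weaker (-0.31 to 0.23 for mt genes, -0.28 to 0.26 for nuclear genes). There the mt genes range from -0.81 (CT #3) to 0.56 (FAM3C KO #2), and those of FAM3C KO #3 all lie above 0 (0.03 to 0.36).

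The curve of difference on GC content was then estimated from the genes that are not mt and subtracted in each library. The median log2 difference of the 13 mt genes changed from 1.07 to 0.20 in LIFR KO #2, from 1.02 to 0.13 in LIFR KO #3 and from 1.26 to 0.44 in the DKO. With each shPCBP1 line set against the mean of the other shPCBP1 lines, the corrected medians of the other 8 libraries lay between -0.25 (CT #3) and 0.14 (LIFR KO #1). LIFR KO #3 was thus inside that range, LIFR KO #2 was just above it and the DKO was above it, with its 13 genes at 0.36 to 0.70. The medians of the nuclear members changed from -0.28 to 0.02, from -0.49 to -0.20 and from -0.52 to -0.12. After the correction 0 of 13 mt and 0 of 76 nuclear members passed in LIFR KO against shPCBP1 (0.51% of all genes did, 0.167% higher and 0.342% lower; unadjusted p was under 0.05 for 1 mt and 10 nuclear members). With LIFR KO #2 and #3 alone after the correction, mt-Nd2 passed (0.44, adjusted p = 0.0269), and of 75 nuclear members 2 were higher (Ndufs1 and Atp5j, at 0.33 and 0.49) and 4 lower (Uqcrq, Atp5g1, Ndufa6 and Ndufa9, at -0.69, -0.60, -0.37 and -0.28), where 11.6% of all genes passed (6.11% higher and 5.52% lower). The curve rests on few genes at this end: 847 other genes had a GC content at or below that of mt-Nd4l, 110 at or below the mt median of 37.1%, and none below mt-Atp8. The DKO is 1 sample and its values have no replicate check.

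**Figure D3:**
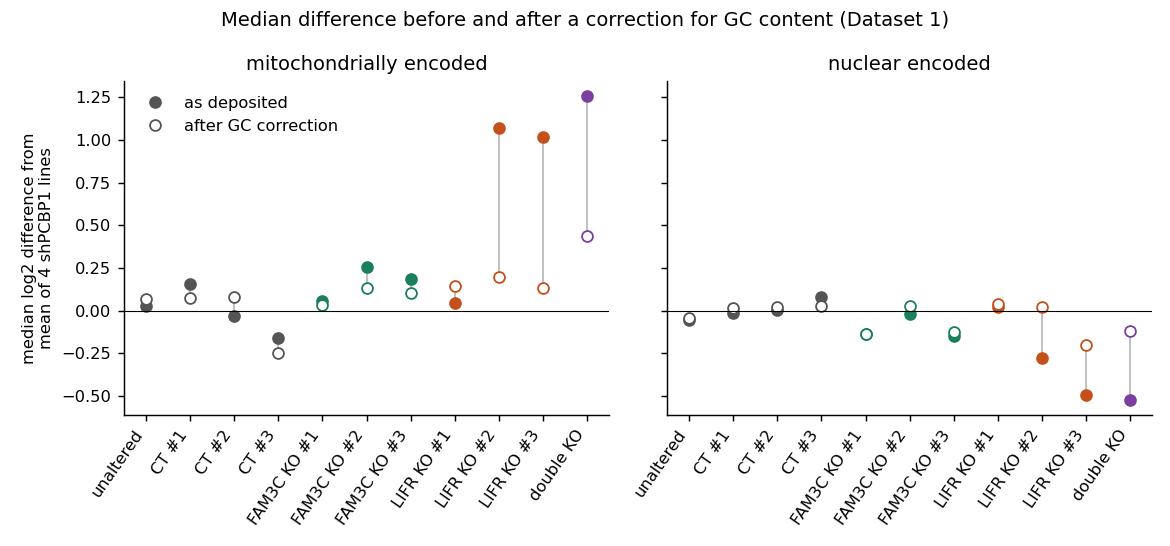
Median log2 difference from the mean of the 4 shPCBP1 lines over the 13 mt genes (left) and the nuclear members with a GC value (right) in each library of Dataset 1, as deposited (filled) and after the correction for GC content (open). Each shPCBP1 line is set against the mean of the other shPCBP1 lines. The mt medians of LIFR KO #2 and #3 fall from above 1 to 0.20 and 0.13 and that of the double KO to 0.44.

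Of the nuclear members, 2 of 77 passed in LIFR KO as a group, both lower. Ndufa6 (chr15:82350140-82354322), an accessory subunit of complex I, was 43.5, 41.5, 44.2 and 44.8 CPM in the unaltered line and CT #1, #2 and #3. It was 26.3, 22.1 and 27.7 CPM in LIFR KO #1, #2 and #3, 32.8 in the DKO and 36.7 to 38.6 in FAM3C KO. Every KO library lay below every shPCBP1 library. The log2 fold change in LIFR KO was -0.78 ± 0.10 (SE, adjusted p = 0.0191), and a two-sided exact permutation test of these 7 libraries gave p = 0.0286, which is as low as 4 against 3 can go. Atp5g2 (chr15:102662864-102672352), 1 of 3 genes for the c subunit of the ATP synthase ring, was 24.8, 22.3, 27.6 and 26.2 CPM in shPCBP1 and 17.1, 11.3 and 17.7 CPM in LIFR KO (log2 fold change -0.74 ± 0.16, adjusted p = 0.0427, exact p = 0.0286). The groups did not overlap, which held for 9 of the 77 members on the lower side and for 13.2% of all genes. Both genes were picked by their limma calls in these same libraries, so their exact p is no independent support. In LIFR KO #1, the clone without the GC shift, the log2 differences were -0.72 for Ndufa6 and -0.56 for Atp5g2 (adjusted p = 0.00852 and 0.0922 in the fit with a single library in that arm). After the GC correction of the 3 clones the fold changes were -0.48 (adjusted p = 0.0883) and -0.29 (adjusted p = 0.347). The call of Ndufa6 was lost without CT #2 (adjusted p = 0.0812) or CT #3 (0.0716), and that of Atp5g2 without any 1 shPCBP1 line (0.0758 to 0.132) or LIFR KO #2 (0.112), with the fold changes between -0.79 and -0.53. The other members on chromosome 15, Cox6c and Ndufb9, lie nearer its start and were at 0.11 and 0.11 in LIFR KO #1. Cox14, a complex IV assembly factor at chr15:99725618-99728136, was 47.7, 31.2 and 34.3 CPM against 69.5 to 80.5 (log2 fold change -0.99, adjusted p = 0.02), was past the threshold after the GC correction (-0.60, adjusted p = 0.00839), and lost the call in 3 of 23 alternatives, without CT #2 (adjusted p = 0.0812), without CT #3 (0.0827) and with the replicate block (0.119). The look at chromosome 15 was chosen after these values were seen.

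The other genes of the pathway gave few calls in LIFR KO. Of 45 assembly factors 0 were higher and 3 lower, which is 6.67% lower against 5.55% of all genes (Cox14, Cox19 and Sco2, the latter 2 copper-handling factors of complex IV, at -0.53 and -0.96). The calls of Cox19 and Sco2 were each lost in 15 of 23 alternatives. With the GC correction they were at -0.35 and -0.38 (adjusted p = 0.151 and 0.253), and in LIFR KO #1 alone at -0.41 and -0.40 (adjusted p = 0.218 and 0.490). With LIFR KO #1 alone 1 of the 45, Cox15, was higher and 1, Cox14, lower (-0.63). Of 30 genes of mitochondrial transcription and RNA handling 0 passed, with 6 at an unadjusted p under 0.05. Polrmt, the mitochondrial RNA polymerase, has a GC content of 60.7%. It was 38.8 to 42.3 CPM in shPCBP1, 45.4 in LIFR KO #1 and 17.1, 19.2 and 19.4 CPM in LIFR KO #2, #3 and the DKO, and its log2 fold change in LIFR KO was -0.73 (adjusted p = 0.101) as deposited and -0.087 (adjusted p = 0.670) with the GC correction. Tfam, which packages mitochondrial DNA and starts its transcription, was 34.4 to 42.6 CPM in shPCBP1 and 40.2 to 42.6 in LIFR KO. Cycs, the electron carrier cytochrome c (40.8% GC), was 51.8 to 57.1 CPM in shPCBP1 and 53.2, 93.5 and 91.5 CPM in the LIFR KO clones, and its fold change was 0.49 (adjusted p = 0.0971) as deposited and 0.14 (adjusted p = 0.351) with the GC correction. Ppargc1b, a coactivator of mitochondrial biogenesis, was lower (log2 fold change -0.98, adjusted p = 0.04), 1 of 10 biogenesis regulators to pass. That call was lost in 13 of 23 alternatives, among them the GC correction (-0.44, adjusted p = 0.222) and LIFR KO #1 alone (-0.57, adjusted p = 0.250). Its relative Ppargc1a was at 0.31 (adjusted p = 0.0854), and at 0.22 (adjusted p = 0.491) in LIFR KO #1 alone. The 4 complex II genes tested gave 0 calls, with 2 at an unadjusted p under 0.05, and the 7 core nuclear subunits of complex I gave 0 calls, with 4. With LIFR KO #1 alone both lists gave 0 calls and 0 at an unadjusted p under 0.05. The summed epithelial markers were 2095, 1214 and 1955 CPM in LIFR KO #1, #2 and #3 and 2467 to 3169 CPM in shPCBP1. Of 5 tested 1, Krt18, passed in limma (log2 fold change -0.72, adjusted p = 0.0663), and it was at -0.54 in LIFR KO #1 alone. The summed mesenchymal markers were 1547, 1215 and 1868 CPM in the same clones and 1734 to 1971 CPM in shPCBP1. The part of either set in these results was not tested.

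In FAM3C KO, 0 of 13 mt and 0 of 77 nuclear members passed in limma, where 0.309% of all genes did (0.0872% higher and 0.222% lower). An unadjusted p under 0.05 was found for 0 mt and 5 nuclear members. The mt log2 fold changes were -0.04 to 0.30 (median 0.18) and their sum was 1.02, 1.12 and 1.14 times the shPCBP1 mean in the 3 clones, within or just above the range of the shPCBP1 lines. mt-Nd1 was 4525, 5237 and 5150 CPM against 3704 to 4358, and mt-Co2 and mt-Co3 also did not overlap between the groups, which makes 3 of 13 mt genes on the higher side against 10.1% of all genes. The lowest fold change among the nuclear members was that of Ndufb7, an accessory subunit at the membrane arm of complex I. It was 52.9, 59.5, 62.1 and 55.1 CPM in the unaltered line and CT #1, #2 and #3 and 33.9, 33.5 and 32.4 CPM in FAM3C KO (log2 fold change -0.78 ± 0.36, adjusted p = 0.5; exact p = 0.0286). It was also low in the libraries with the GC shift, LIFR KO #2 (30.2 CPM), LIFR KO #3 (16.3) and the DKO (19.7), and was highest in LIFR KO #1 (69.3). Ndufv2, the iron-sulfur subunit of the NADH dehydrogenase module, was 43.9, 43.3, 43.4 and 50.3 CPM in the same 4 lines and 61.4, 65.6 and 62.0 CPM in FAM3C KO (log2 fold change 0.48 ± 0.14, adjusted p = 0.233; exact p = 0.0286). LIFR KO #3 (62.0) and the DKO (68.1) were as high in CPM, LIFR KO #1 (40.6) and #2 (45.5) were not. Ndufv2 has a GC content of 44.5%, and LIFR KO #2, LIFR KO #3 and the DKO carry the GC shift. With the GC correction its log2 differences were 0.16 in LIFR KO #3 and 0.35 in the DKO, against 0.41 to 0.50 in FAM3C KO. They were -0.11 and -0.27 in LIFR KO #1 and #2. Ndufb7 and Ndufv2 had the lowest and highest fold changes of the nuclear members, so their exact p is no independent support. An exact p of 0.0286 is the lowest that 4 against 3 can give. In this comparison 10.1% of all genes were higher without overlap and 12.5% lower.

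These results depended on which libraries shared the estimate of the spread. With FAM3C KO and shPCBP1 fitted alone, 7 of 76 nuclear members passed where 8.29% of all genes did (3.94% higher and 4.35% lower): Ndufv2 higher, and Ndufb7 (adjusted p = 0.00203), Ndufb10, Ndufb11, Ndufa10, Cox6b1 and Atp5o lower. After the GC correction 1 of 76, Ndufv2, was higher (adjusted p = 0.0603), where 1.86% of all genes passed, 0.836% higher and 1.03% lower. Across all 77 nuclear members 3 were higher and 17 lower with no overlap between the groups, against 10.1% and 12.5% of all genes. The 3 higher members, Ndufa11 (chr17:56717767-56722141), Ndufv2 (chr17:66078638-66101559) and Cox7a2l (chr17:83501918-83517330), lie on chromosome 17, in that order. Cox7a2l belongs to the assembly of respiratory supercomplexes. Its log2 differences in FAM3C KO #1, #2 and #3 were 0.29, 0.24 and 0.32, and those of Ndufa11 were 0.54, 0.44 and 0.23. The 3 members nearer the start of chromosome 17, Ndufb10, Ndufv3 and Ndufa7, were between -0.39 and -0.06 in the same clones. Lrpprc, which stabilises mitochondrial mRNAs, lies at chr17:84705247-84790789 and was 118, 134 and 126 CPM in FAM3C KO against 75.4 to 106 in shPCBP1 (log2 fold change 0.52, adjusted p = 0.203). The grouping by chromosome was chosen after the values were seen. Of the surrounding lists, 0 of 45 assembly factors, 0 of 30 transcription and RNA genes, 0 of 10 biogenesis regulators and 0 of 4 complex II genes passed (2, 1, 1 and 0 at an unadjusted p under 0.05). The summed mesenchymal markers were 2152, 2002 and 2142 CPM in FAM3C KO and 1734 to 1971 CPM in shPCBP1, with 0 of 5 tested past the threshold. The summed epithelial markers were 3028, 2004 and 2805 CPM in FAM3C KO #1, #2 and #3 and 2467 to 3169 CPM in shPCBP1. The part of either set was not tested.

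**Figure D4:**
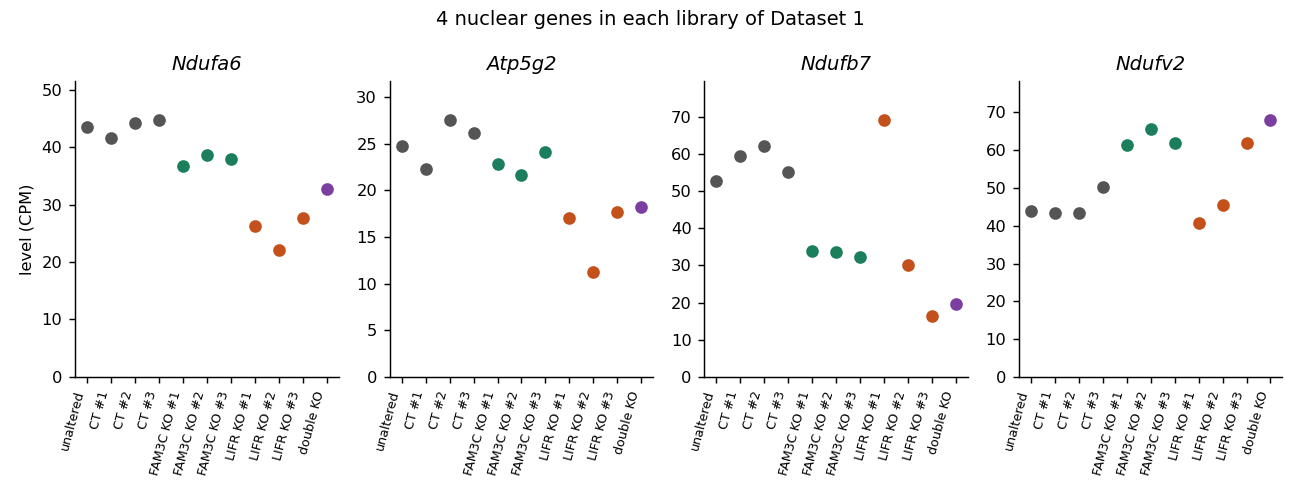
CPM of Ndufa6, Atp5g2, Ndufb7 and Ndufv2 in each library of Dataset 1, 1 point per library. Ndufa6 and Atp5g2 are lower in all 3 LIFR KO clones than in the 4 shPCBP1 lines, Ndufb7 is near 33 in the FAM3C KO clones against 52.9 to 62.1 and Ndufv2 is above 61 in them against 43.3 to 50.3.

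Dataset 2 compared shPCBP1 with NMuMG cells. The mt genes were lower as a whole. Their sum was 28175 and 27331 CPM in the NMuMG samples (27753 ± 596, SD, n = 2) and 19989 and 19712 CPM in the shPCBP1 samples (19850 ± 196, n = 2), whereas the nuclear sum was 2176 and 2199 against 2175 and 2131 CPM. The ratio of mt to nuclear CPM fell from 12.9 and 12.4 to 9.19 and 9.25. All 13 mt genes passed the threshold, 11 lower and 2 higher, where 80.1% of all genes passed (42.1% higher and 38% lower). With calls for most genes, direction and size carry more than the call. The spread here is that between 2 samples of a line, which nothing in the labels says came from separate cultures, so that the p-values may measure technical spread.

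In the order of the mitochondrial genome, mt-Nd1 fell most, from 4213 and 4109 to 2547 and 2511 CPM (log2 fold change -0.72 ± 0.02, adjusted p = 2.62e-10). mt-Nd2 followed at -0.68, mt-Co1 at -0.53 and mt-Co2 at -0.49. mt-Co1 was 11188 and 10848 CPM in NMuMG and 7647 and 7605 CPM in shPCBP1. The overlapping pair mt-Atp8 (-0.14, adjusted p = 0.0655) and mt-Atp6 (-0.34) and the next gene mt-Co3 (-0.16) changed less. mt-Atp8 was 57.0 and 48.6 against 50.0 and 45.4 CPM, so that its groups overlapped. Of the other mt genes 10 were lower and 2 higher in both shPCBP1 samples than in both NMuMG samples, as were 42.6% and 46.3% of all genes. mt-Nd3, mt-Nd4l and mt-Nd4 were at -0.41, -0.44 and -0.41. The next pair went the other way. mt-Nd5 rose from 971 and 977 to 1102 and 1074 CPM (log2 fold change 0.16 ± 0.02, adjusted p = 3.34e-05), and mt-Nd6, the only mt member encoded on the minus strand, rose from 203 and 195 to 252 and 243 CPM (0.31 ± 0.03, adjusted p = 9.52e-07). mt-Cytb, beyond them, fell from 3253 and 3203 to 2249 and 2227 CPM (-0.53 ± 0.02, adjusted p = 1.72e-09). Reads in the bases shared by mt-Nd5 and mt-Nd6, or by mt-Atp8 and mt-Atp6, cannot be assigned from CPM, and whether the counting used strand is not given in the sources used here.

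The GC correction changed part of this result. Dataset 2 had a weak relation of difference with GC content (Spearman rho of 0.07 and 0.08 in the shPCBP1 samples over genes that are not members). Across the 13 mt genes rho had the opposite sign, at -0.39 and -0.41 in the same samples. After the GC correction the median mt log2 fold change was -0.10 instead of -0.41, and 7 mt genes were lower and 3 higher past the threshold (80.4% of all genes passed, 41.6% higher and 38.9% lower). mt-Nd1 (-0.49), mt-Nd2 (-0.37), mt-Co1 (-0.39) and mt-Cytb (-0.36) stayed lower, and mt-Nd5 (0.41) and mt-Nd6 (0.71) stayed higher, while mt-Atp8 turned to 0.32. The correction at this end of GC content rests on few genes, as in Dataset 1.

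Nuclear members split by complex. Of the 71 tested, 25 were higher and 20 lower, so that 63.4% were called against 80.1% of all genes. Complex III differed in direction from its mt gene: 7 of its 8 nuclear members were higher and 0 lower (87.5% higher, against 42.1% of all genes), while mt-Cytb fell. Uqcrq rose from 61.3 and 62.0 to 78.6 and 79.8 CPM (log2 fold change 0.36 ± 0.03, adjusted p = 2.72e-07). Uqcr10 rose from 45.9 and 45.1 to 57.8 and 58.0 CPM, and Uqcrfs1, the Rieske iron-sulfur protein, from 106 and 110 to 126 and 128 CPM. The core protein gene Uqcrc1 had the largest change (0.41 ± 0.07, adjusted p = 0.000356), from 9.66 and 10.1 to 14.0 and 12.3 CPM, and Uqcrc2 had the smallest rise (0.18). Uqcrb (0.36) and Uqcr11 (0.26) also rose, and Uqcrh, the hinge protein, was 20.7 and 19.6 against 19.7 and 17.7 CPM (-0.11, adjusted p = 0.102). The file lists Uqcrc1, Ndufs3 and Atp5a1 under copies on patch contigs, so that reads may be shared with the primary copy and their values are uncertain. The ratio of mt to nuclear CPM in complex III fell from 12.1 and 11.7 to 6.85 and 6.81, and in complex IV from 25.8 and 24.7 to 23.2 and 23.3. The mt sum fell in both, to 0.70 and 0.69 of the NMuMG mean in complex III and 0.72 and 0.71 in complex IV. In complex IV the nuclear sum also fell, from 583 and 590 to 459 and 452 CPM. Cox8a alone went from 296 and 305 to 199 and 194 CPM, while other nuclear members of complex IV rose, as given below.

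**Figure D5:**
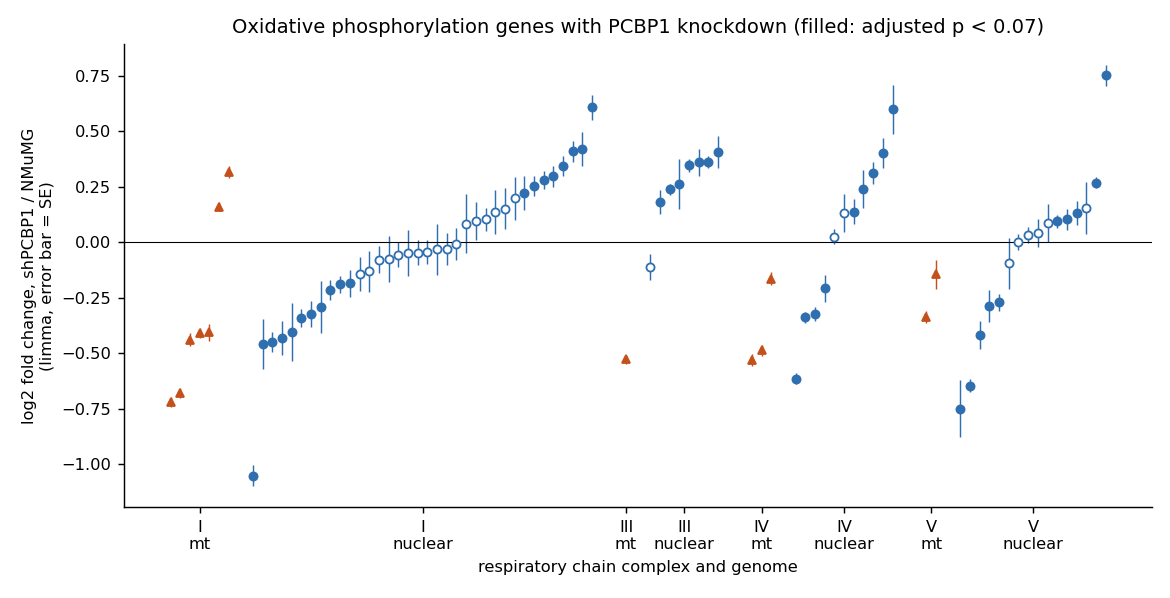
Log2 fold change of each oxidative phosphorylation gene in shPCBP1 against NMuMG (limma on log2(CPM + 0.1), error bar = SE, n = 2 per group), grouped by complex and genome and ordered by size (triangles, mt genes; circles, nuclear genes; filled, adjusted p under 0.07). 11 of 13 mt genes are below 0, 7 of 8 nuclear complex III genes are above it, and the nuclear genes of complexes I, IV and V lie on both sides.

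In complex I, 8 of 36 nuclear members were higher (22.2%) and 11 lower (30.6%), against 42.1% and 38% of all genes. Ndufv3, an accessory subunit of the NADH dehydrogenase module, had the largest fall of all members, from 30.0 and 29.2 to 13.8 and 14.6 CPM (-1.05 ± 0.05, adjusted p = 3.91e-09). Ndufb6 had the largest rise in the complex (0.61 ± 0.05), from 10.95 and 10.7 to 16.4 and 16.7 CPM. Of the 7 core nuclear subunits, which hold the flavin and iron-sulfur centres, 0 were higher and 3 lower: Ndufs8 (-0.43), Ndufs3 (-0.29) and Ndufv1 (-0.19). In complex IV, 5 of 11 nuclear members were higher and 4 lower (45.5% and 36.4%), near those shares. The most abundant of them, Cox8a, fell from 296 and 305 to 199 and 194 CPM (-0.61 ± 0.02, adjusted p = 1.21e-09), with Cox7a2l at -0.34 and Cox6a1 at -0.32, while Cox5a (0.60) and Cox7c (0.40) rose. In complex V, as assigned by symbol, 5 of 16 were higher and 5 lower (31.2% each). The lower genes included Atp5s and Atp5sl, which were counted here by name alone. The catalytic subunits went apart, with Atp5a1 at -0.65 and Atp5b at 0.27. Atp5g1, a c subunit gene, had the largest rise of all members (0.75 ± 0.05), from 18.04 and 17.4 to 30.9 and 28.9 CPM, while Atp5g2 rose by 0.10 (adjusted p = 0.0660) and Atp5g3 was 85.2 and 91.0 against 90.1 and 86.1 CPM. These 3 paralogues may share reads. Atp5s, named as a coupling factor, was at -0.75 (adjusted p = 0.000249).

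The lists around the complexes held genes that rose and genes that fell. Of 41 assembly factors 19 were higher and 12 lower (46.3% and 29.3%), against 42.1% and 38% of all genes. The largest rise was that of Ndufaf4, a complex I assembly factor, from 11.7 and 10.8 to 35.3 and 37.5 CPM (1.69 ± 0.05, adjusted p = 2.66e-10), followed by Cox10 (1.00) and Sco2 (0.93), which serve the haem and copper centres of complex IV. Cox15, which also acts in haem A synthesis, fell (-0.72). Of 29 genes of mitochondrial transcription and RNA handling 16 were higher and 6 lower (55.2% and 20.7%). Elac2, which cuts tRNAs from the mitochondrial precursor, rose by 1.11 on the log2 scale and Fastkd5 by 0.92, and Polrmt was at 0.28 (adjusted p = 0.000403). Tfam was lower, from 31.2 and 34.0 to 28.0 and 27.7 CPM (-0.22 ± 0.04, adjusted p = 0.000758), and Lrpprc was 10.8 and 12.6 against 11.2 and 10.6 CPM (-0.09, adjusted p = 0.278). Of 10 biogenesis regulators 6 were higher and 3 lower (60% and 30%), with Ppargc1b at 0.88, Ppargc1a at 0.29 and Perm1 at -2.16. Cycs rose from 26.2 and 26.1 to 40.3 and 42.2 CPM (0.65 ± 0.04), and 3 of 4 complex II genes were higher and 0 lower. All 4 mesenchymal markers tested were higher in shPCBP1, with Vim at 1.19 and Fn1 at 3.45. Of 5 epithelial markers 1 was higher and 4 lower, with Cdh1, the epithelial cadherin, at -0.65. Their part in these results was not tested.

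Promoters of the nuclear members were searched because their mRNAs come from separate genes. RefSeq windows (GRCm38.p6, 250 bases before to 50 after the start) were found for 65 of 82 nuclear symbols. The NRF1 motif (GCGC, then any base, then TGCGC, searched on both strands, as were the others) was present for 23.1% of them and for 5.19% of 27025 genes with a window. The ETS motif CCGGAAG, bound by factors of the GABP kind, was present for 23.1% against 9.93%, and the YY1 motif ATGGCGG for 15.4% against 4.69%. The CCAAT motif, also searched, was present for 43.1% against 41.1%, near the share of all genes. The 5 complex III members with a window held the NRF1 motif in 1 (Uqcrc1) and the ETS motif in 2. Those 2 promoters are shown over the 150 bases before the start, with the ETS letters in capitals (on the reverse strand in Uqcrh). A match is a description of the letters in this window.
Uqcr11, chr10:80406822-80406971, minus strand: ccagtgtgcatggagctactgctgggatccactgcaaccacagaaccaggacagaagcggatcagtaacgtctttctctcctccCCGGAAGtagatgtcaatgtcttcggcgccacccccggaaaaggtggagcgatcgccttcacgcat
Uqcrh, chr4:116075071-116075220, minus strand: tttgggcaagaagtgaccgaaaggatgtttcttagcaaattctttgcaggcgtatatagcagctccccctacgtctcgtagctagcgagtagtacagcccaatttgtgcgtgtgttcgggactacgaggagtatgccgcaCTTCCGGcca
Uqcr11 was among the complex III genes that rose with PCBP1 knockdown and Uqcrh was the 1 that did not.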

How the data were processed

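RNA-Seq was performed on total RNA after rRNA depletion with a directional kit. The authors trimmed reads, aligned them to GRCm38 (Bowtie2 is named in the submitters' processing notes), quantified genes in Partek Flow and deposited a CPM value per gene and sample, in which a small positive number stands for 0. For Dataset 2 the authors also deposited group means and a ratio (fold change) of means, which were not used. Groups were taken from the labels. The members and gene lists were chosen with earlier results of these data known.

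CPM values were transformed to log2(CPM + 0.1), genes whose mean was below 0.5 CPM were dropped, and group means were fitted with limma 3.58.1 (R 4.3.3) with a mean-variance trend, so that fold changes are on that scale and understate the change of low genes. Dataset 1 was fitted with shPCBP1, FAM3C KO and LIFR KO together and the DKO left out, and Dataset 2 apart. Benjamini-Hochberg adjustment ran over all genes, and adjusted p under 0.07, as in the study, was the threshold. Exact permutation tests were run on single genes of Dataset 1; with 2 samples against 2 none was run. Read depth could not be recovered from the CPM values and its effect on precision is unknown, so no count test was run. GC content and length are medians over the protein-coding transcripts of a gene in GENCODE M21. Gene starts matched M21 for 302 of 13870 genes in Dataset 1 and 14269 of 14795 in Dataset 2, so coordinates are those of M21. The GC correction subtracted, per library, a loess curve (span 0.3) fitted on genes that are not mt and held level beyond its ends. Named were all mt genes, the highest and lowest nuclear member of each complex, the called members (3 per direction where more than 6), the isoform and core complex I lists and the 3 most changed called genes per direction of each surrounding list; Ndufa11, Cox7a2l, Ndufa7, Ndufb10, the higher members Atp5pb and Uqcrb and others outside this rule were chosen after their values were seen. Alternatives were median-ratio and quantile scaling, CPM without mt genes, other pseudocounts, filters and thresholds, GC correction, a replicate block and leaving out each library. The fits were tested on simulated data. Python 3.11.15 with matplotlib 3.10.9 drew the figures.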

Additional observations from a re-analysis of the deposited data

Results flagged for a closer look

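Library shPCBP1 CT #3 was flagged among the 4 shPCBP1 lines for 3 members. It held the lowest mt-Atp8 (115 CPM, against 199 to 205), the highest mt-Nd3 (152 CPM) and the highest Ndufv2 (50.3 CPM, against 43.3 to 43.9), each by Dixon's test within the group of 4. Of 62 groups tested these were the only 3, and chance alone picks out about 1 in 20. About this many flags would thus come from chance alone. The DKO, which entered no comparison between groups, had a summed mt CPM of 60397 against 24718 to 29615 in the shPCBP1 lines. It is a single sample and the difference was not tested.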

How the results depend on the processing

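The 13 mt members and the nuclear members of LIFR KO depended most on the libraries and on GC content, and depth could not be recovered from CPM. For the mt members of LIFR KO against shPCBP1, 0 passed as reported, 2 passed with a filter of at least 2 CPM and 13 with clones 2 and 3 alone, and leaving out 1 library each gave 0 to 13 (13 without LIFR KO #1). Their median log2 fold change of 0.71 was 0.88 with median-ratio scaling, 0.50 with quantile scaling, 0.12 with GC correction, 0.046 with clone 1 alone, 1.04 with clones 2 and 3, 0.16 and 0.19 with GC correction of clone 1 and of clones 2 and 3, and 0.53 to 1.04 with 1 library left out. For the nuclear members of LIFR KO the 2 calls became 0 with GC correction, 1 with the 2 groups fitted alone, 1 with clone 1 alone, 45 with clones 2 and 3, 6 with GC correction of clones 2 and 3 and 0 to 45 with 1 library left out (0 without CT #2 or CT #3, 1 without CT #1, the unaltered line or LIFR KO #2, 3 without LIFR KO #3, 45 without LIFR KO #1). Their median of -0.23 was -0.067 with median-ratio scaling, -0.082 with quantile scaling, -0.050 with GC correction, 0.020 with clone 1 alone, 0.035 and -0.081 with GC correction of clone 1 and of clones 2 and 3, -0.39 with clones 2 and 3 and -0.39 to -0.11 with 1 library left out. For the nuclear members of FAM3C KO the 0 calls became 1 with GC correction and 7 with the 2 groups fitted alone, and stayed 0 with any 1 library left out. In Dataset 2 the mt median of -0.41 was -0.17 with quantile scaling, -0.10 with GC correction and -0.45 to -0.39 with 1 library left out, and the nuclear median of 0.03 was 0.0085 with median-ratio scaling, 0.0028 with quantile scaling, 0.022 with CPM without mt genes, 0.019 with GC correction and 0.013 to 0.053 with 1 library left out. With GC correction mt-Atp8, mt-Co3 and mt-Nd3 turned to 0.32, 0.013 and 0.046 in Dataset 2, with and without the block. The cause was not tested. GC correction with clone 1 or clones 2 and 3, and FAM3C KO without LIFR KO #2 and #3, were added after seeing the data.

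The replicate number does not pair the samples, since correlations of same-numbered samples were -0.19 to 0.15 in Dataset 1 (-0.18 to 0.15 between numbers) and 0.05 in Dataset 2. With the replicate block LIFR KO gave 0 mt and 0 nuclear calls, medians of 0.72 and -0.22, FAM3C KO gave 0 and 0, and Dataset 2 gave 13 and 47. With the block and GC correction the LIFR KO medians were 0.13 and -0.055 with 0 nuclear calls, and those of Dataset 2 were -0.10 and 0.019.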
